A study of Mus musculus with 58 samples.

Results

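Translation initiation factor genes were taken as all mouse genes whose symbol begins with Eif1 to Eif6 and is not a pseudogene. They made up 53 of the 20177 genes that had a counted 3′ UTR interval, and 138 of the 46420 intervals. In the reference annotation 66 symbols matched, of which 10 were pseudogenes, and 3 further genes (Eif3m, Eif4ebp3 and Eif2c5) had no counted interval. The list was chosen by name and not by a measured value.

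Initiation factors bring the ribosome to the start codon of an mRNA. In the eIF4F complex eIF4E binds the cap, eIF4G bridges the mRNA and the ribosome, and the helicase eIF4A opens the leader with the help of eIF4B and eIF4H, whereas the eIF4E-binding proteins hold eIF4E back. eIF3 is the large scaffold on the small ribosomal subunit, eIF2 delivers the initiator tRNA and is recharged with GTP by eIF2B, eIF1, eIF1A and eIF5 set the choice of start codon, and eIF5B joins the large subunit. The genes are highly expressed in growing cells such as embryonic stem cells.

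RNA was measured in E14 mouse embryonic stem cells (129/Ola strain) from which DPY30 or RBBP5, core subunits shared by the complexes that methylate histone H3 at lysine 4, could be removed within hours. In SLAM-seq, cells received 100 µM 4-thiouridine for 60 min, so that RNA made in that time gave reads with T>C conversions, and the libraries were prepared from mRNA 3′ ends. DPY30–mAID cells carry an auxin degron on both Dpy30 alleles and the OsTIR1 ligase, and were treated with auxin for 0, 2, 8 or 24 h (3 libraries each). RBBP5–FKBP cells, a clonal line with the FKBP12 degron on both Rbbp5 alleles, were treated with dTAG-13 for 0, 2, 8 or 24 h (3 libraries each). DPY30–mAID cells in which Kdm5a and Kdm5b, encoding H3K4 demethylases, had also been knocked out (dKO, for which 2 clones were picked) were treated with auxin for 0, 2, 4, 8, 24 or 48 h (2 libraries each). Their 0 h controls therefore carry both deletions. The labels do not say which clone each dKO library came from, so that the spread between the 2 libraries of a group may be that between clones or that within one. In a separate Quant-seq experiment without labelling, DPY30–mAID cells received 1 µM retinoic acid (RA) in medium without LIF, and DMSO or auxin. They were collected at 0 h (DMSO), 8 h, day 1, day 2, day 4 and day 6 (2 libraries each). The labels do not say when auxin was added relative to RA.

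The 36 SLAM-seq libraries held 1721185 to 7792404 reads in counted intervals, and the 21 distinct Quant-seq libraries held 1264241 to 2543632. The DMSO libraries of RA day 6 were identical and were counted as 1 sample, so day 6 is given as values only. The study's legends call the SLAM-seq replicates biological, whereas for the Quant-seq replicates nothing says whether they were separate cultures, so there p-values measure the spread between libraries, which may be technical. The 8 embryonic stem cell markers (Pou5f1, Nanog and others) were all detected, with a summed level of 8979 to 9898 CPM (reads of a gene scaled to the total reads of the library) in untreated DPY30–mAID cells, whereas 4 fibroblast markers summed to 1.85 to 2.59 there and to 20.2 to 25.9 in untreated dKO cells. Kdm5b stood at 109 to 151 CPM in the dKO libraries and at 389 to 946 in the DPY30–mAID libraries, and Kdm5a at 26.0 to 40.7 and at 61.1 to 107, although reads at the 3′ end lie outside a Cas9 cut elsewhere in the gene and do not test the knockout. Degrons act on protein, so the levels of Dpy30 and Rbbp5 RNA do not check the treatments.

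Initiation factor genes drew 1.71% of all SLAM-seq reads from 53 genes. Multimapped reads made up 31.4% of their SLAM-seq reads and 36.4% of their Quant-seq reads, beside 29.4% and 29.6% over all genes. The multimapped share was very uneven among the members. It was over 20% for 16 members and under 1% for 29. It was highest for Eif2s3x, the γ subunit of eIF2 on the X chromosome, at 88.2%. The helicases Eif4a2 (86.0%) and Eif4a1 (66.6%), the elongation factor Eif5a (66.3%) and Eif4b (60.8%) followed. The other members over this limit were Eif3j1 (58.6%), Eif2s2 (56.0%), Eif3a (51.5%), Eif4enif1 (50.9%), Eif2s1 (48.5%), Eif3e (48.4%), Eif4e (45.4%), Eif1 (42.4%), Eif5 (37.5%), Eif4g2 (29.2%) and Eif4ebp2 (23.4%). For these genes reads from processed pseudogenes or paralogues cannot be separated from the gene's own, and their values are uncertain to that extent. Members with almost only unique reads included Eif4h (0.0383%), Eif3d (0.0703%), Eif3i (0.122%) and Eif4a3 (0.199%).

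The sequence around the start of several of these genes contains the palindrome CACGTG, the E-box bound by MYC family factors. The motif was searched, with the expression results known, in the 300 bases from 250 before to 50 after each RefSeq gene start (GRCm38.p6). Promoter sequence was available for 42 of the 53 members, and 10 of these 42 (23.8%) held the motif, beside 8.09% of 27025 genes. Per promoter the shares were 21.8% for the members and 7.15% of 32851 promoters. The palindrome reads the same on both strands, and a match is a description of the letters and not a binding site. The 30-base windows around it are shown for the 7 members with a match and lower labelled RNA after 8 h of auxin, 5′ to 3′ on the strand of the gene, with the motif in capitals.
Eif3a (chr19:60790654-60790683, minus strand): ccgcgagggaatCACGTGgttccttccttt
Eif3f (chr7:108934335-108934364, plus strand): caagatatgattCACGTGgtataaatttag
Eif4a1 (chr11:69672595-69672624, minus strand): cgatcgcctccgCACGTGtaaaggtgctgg
Eif4e (chr3:138527192-138527221, plus strand): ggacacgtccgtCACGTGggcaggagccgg
Eif4g1 (chr16:20672661-20672690, plus strand): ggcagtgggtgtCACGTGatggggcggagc
Eif4h (chr5:134639488-134639517, minus strand): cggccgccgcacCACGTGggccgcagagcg
Eif5a (chr11:69921443-69921472, minus strand): aaggggcggggtCACGTGtgtgcgtcatcc
Eif4e, Eif4g1 and Eif5a had a further match each. The other members with a match were Eif1b, Eif3k and Eif5a2. The motif began 68 bases before the annotated start in Eif3f, 64 in Eif4e, 54 in Eif4g1, 96 in Eif4h, 185 in Eif5a and 189 in Eif4a1, and 22 bases after it in Eif3a.

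How much of each member's RNA was newly made was first compared in untreated DPY30–mAID cells, as the share of its reads with a T>C conversion. The members together stood at 15.4% ± 0.268 (SD, n = 3) and the whole libraries at 15.8% ± 0.463. The median over the 44 members with at least 50 reads was 14.0%, beside 18.5% over 5862 genes, and 14 of the 44 were above their library. In the unlabelled Quant-seq libraries 0.128% to 0.234% of the members' reads had a conversion, which is the background of the measure.

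Group means ranged from 3.56% to 35.5% between members. The lowest were 3 subunits of eIF3. Eif3k had 3.64, 1.38 and 5.67% in the 3 libraries, Eif3e 5.69, 5.83 and 6.70%, and Eif3h 6.71, 6.23 and 8.21%. The highest were Eif1a with 37.4, 31.5 and 37.6%, Eif1ad, an eIF1A-related protein, with 28.4, 25.8 and 34.4%, and Eif4a2 with 23.8, 33.3 and 27.0%. None of these 3 overlapped the 3 lowest in any library. Within eIF3 the largest subunit stood apart, as Eif3a had 24.0, 31.6 and 25.6%. Paralogues differed as well, and Eif1a stayed far above the library in all 4 groups of this line, with means of 33.6%, 25.7% and 46.8% after 2, 8 and 24 h.

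Over time the members' share changed in the same direction as that of their libraries in RBBP5–FKBP and dKO cells and up to 8 h in DPY30–mAID cells. In DPY30–mAID cells their pooled share was 14.0% after 2 h, 8.02% ± 2.98 (SD, n = 3) after 8 h and 17.5% ± 0.492 after 24 h, and that of the libraries was 14.7%, 9.46% ± 3.78 and 15.3%. The 3 libraries at 8 h were far apart, with the members between 4.97% and 10.9% and the whole libraries between 5.51% and 13.03%. In RBBP5–FKBP cells the members' share was 9.30% before treatment, 6.99% and 6.44% after 2 and 8 h of dTAG-13, and 4.48% after 24 h. In dKO cells it started from 4.54%, lay between 3.75% and 4.20% over the first 8 h of auxin, and was 2.91% after 24 h and 2.04% after 48 h. Levels between lines are not compared, because the T>C shares and the depth of the libraries differed. At 24 h in DPY30–mAID cells the members' pooled share lay above its own level at 0 h and above that of its libraries, which lay slightly below their level at 0 h. In the other groups it lay below that of the libraries.

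**Figure D1:**
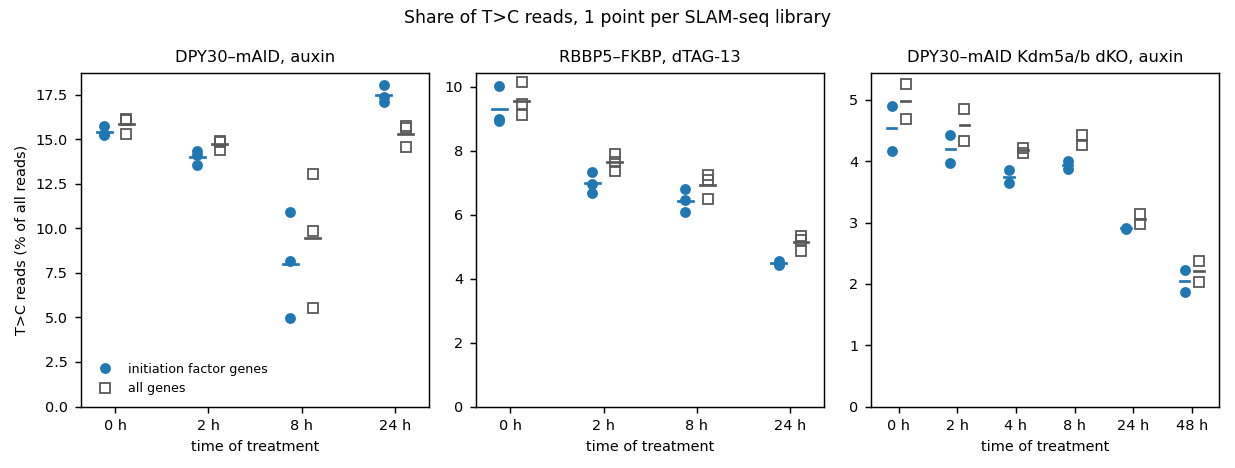
Share of reads with a T>C conversion (%, vertical axis) in each SLAM-seq library against the time of treatment, for the initiation factor genes pooled (filled circles) and for all genes (open squares), with lines at the group means. In DPY30–mAID cells at 8 h the members spread from 4.97% to 10.9% and all genes from 5.51% to 13.03%, and at 24 h the members (17.5%) lie above all genes (15.3%).

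After 8 h of auxin, T>C reads of many initiation factors were lower in DPY30–mAID cells. T>C reads were tested relative to all reads of the library, with edgeR's quasi-likelihood test and Benjamini-Hochberg adjustment over all genes tested, and called at an adjusted p below 0.05. Of the 44 members with enough T>C reads, 20 fell and 0 rose, beside 16.1% of 6317 genes that fell and 0.158% that rose. The members' median log2 fold change was -1.03, that of all genes -0.72, and all 44 members had negative values. The members were deeper than most genes (median of 81.5 T>C reads at 0 h beside 27.3, with 38 of 44 above that), so that more of them could pass the test at an equal change. Because T>C reads were scaled to all reads of the library, cell number and the amount of RNA per cell were not measured. As these are bulk samples, a fall in some cells and a fall in all cells cannot be told apart. Whether less RNA was made or less label was taken up was not tested. The summed stem cell markers stood at 7042 to 7444 CPM at 8 h, below the 0 h libraries, and their part was not tested.

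Of the eIF4 genes of cap binding and scanning 7 of 8 fell, with a median of -1.31. Eif4g1, the scaffold of eIF4F, had 33.5, 30.4 and 34.4 T>C CPM (T>C reads scaled to all reads of the library) at 0 h and 14.2, 10.7 and 4.78 at 8 h, a log2 fold change of -1.72 ± 0.44 (SE, adjusted p = 0.00535). Its 8 h libraries were all below the 0 h libraries. Eif4a1 fell by 1.44 on the log2 scale, Eif4h by 1.44, Eif4g2 by 1.31, Eif4e2 by 1.30, Eif4e by 1.07 and Eif4b by 0.99. Eif4g2, also called DAP5, is a relative of eIF4G without the part that binds eIF4E. Eif4a2 was the eIF4 gene without a call (-0.69 ± 0.33 (SE)). Eif4ebp1, the repressor of eIF4E that mTOR controls, fell from 98.6, 100. and 77.8 to 50.7, 23.3 and 11.7 T>C CPM (-1.68 ± 0.35 (SE, adjusted p = 0.0011)), again without overlap.

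Among the eIF3 subunits 5 of 12 fell. Eif3f had 25.0, 17.0 and 24.8 T>C CPM at 0 h and 8.11, 5.59 and 5.64 at 8 h, the largest change of any called member (-1.77 ± 0.46 (SE, adjusted p = 0.00584)). Eif3b, Eif3l, Eif3a and Eif3d fell by 1.24, 1.24, 1.20 and 1.17, and the other 7 subunits (Eif3c, Eif3e, Eif3g, Eif3h, Eif3i, Eif3j2 and Eif3k) were not called, with values from -0.91 in Eif3h to -0.12 in Eif3k. Of the genes for start codon selection 3 of 5 fell (Eif5 by 1.40, Eif1a by 1.39 and Eif1 by 0.88), and Eif1ad, whose role in initiation is not established, fell by 1.14. Eif5a, which despite its name acts mainly in elongation, fell from 195, 155 and 166 to 80.7, 49.4 and 24.7 (-1.73 ± 0.32 (SE, adjusted p = 0.000226)), with the 8 h libraries below those of 0 h but wide apart. Eif2s2, the β subunit of eIF2, and Eif6, which keeps the ribosomal subunits apart, fell by 1.22 and 1.14. None of the 5 eIF2B genes passed, and their median was -0.36. Of the 9 tested members with an E-box, 7 fell, beside 9 of 26 tested members whose promoters had none. Over all genes tested 21.5% of 662 with the motif and 14.8% of 4419 without it fell, and no test was made of this split. Depth and multimapped share were not matched between genes with and without the motif.

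The count at 8 h depended on single libraries and on the scaling. It was 11 without the second 0 h library and 12 without the second 8 h library, and 13 with library sizes not adjusted by TMM. Where libraries were scaled to their T>C reads instead, which centres the change of all genes (median -0.02 in place of -0.72), the members' median was -0.35 and 6 of them fell. At 2 h 0 of 44 members were called, as were 0% of all genes, and 1 was lower at an unadjusted p below 0.05 (DESeq2 called 0). At 24 h 0 of 44 members passed edgeR's test, beside 3.55% of all genes in either direction, with 3 lower and 9 higher at an unadjusted p below 0.05 and a median of 0.02. DESeq2 called 2 higher at 24 h, and scaling to T>C reads 3 lower and 10 higher. Within each line all times were compared with the same 0 h libraries, as in the RA course.

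**Figure D2:**
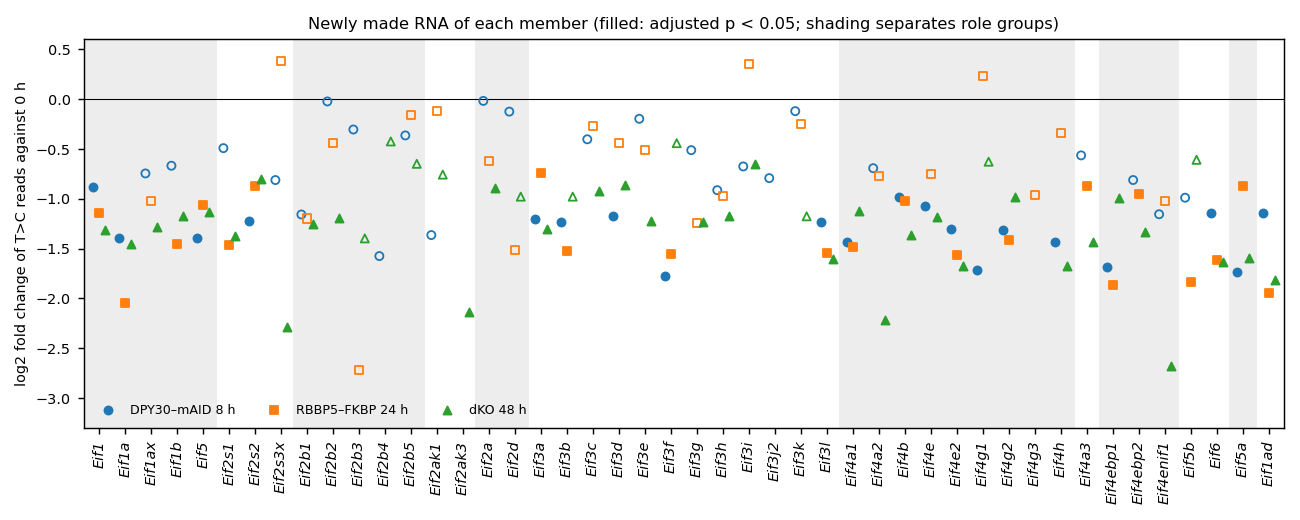
Log2 fold change of T>C reads against 0 h (vertical axis) for each tested member (horizontal axis, grouped by role with grey shading), in DPY30–mAID cells at 8 h (circles), RBBP5–FKBP cells at 24 h (squares) and dKO cells at 48 h (triangles), filled where adjusted p was below 0.05. Nearly all points lie below 0, all 20, 21 and 34 called values are negative, and the eIF2B genes carry few filled points.

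All reads of these genes, which include RNA made before the treatment, moved less by 8 h and in both directions by 24 h. At 8 h 7 of 50 tested members fell and 0 rose, beside 7.85% and 5.32% of 9848 genes. Eif1a fell from 423, 507 and 522 to 272, 250.1 and 226 CPM (-0.96 ± 0.11 (SE, adjusted p = 4.83e-09)), and the groups did not overlap. It was also the member with the highest labelled share. Eif4ebp1 went from 624, 641 and 633 to 472, 426 and 329 (-0.63 ± 0.11 (SE, adjusted p = 2.6e-05)) and Eif2s2 from 1369, 1223 and 1453 to 934, 934 and 897 (-0.55 ± 0.09 (SE, adjusted p = 1.23e-05)), both without overlap. Eif4a1, Eif1, Eif3a and Eif5 fell by 0.49, 0.48, 0.45 and 0.31. At 2 h 0 of 50 members were called, beside 0.0305% of all genes, with 4 lower and 2 higher at an unadjusted p below 0.05, and DESeq2 called 1 lower.

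At 24 h of auxin 16 members had fallen and 8 had risen, beside 17% and 15.9% of all genes, so the shares were 32% and 16% of the 50 tested. The median was -0.17, beside 0.01 for all genes. Eif4g3, a second eIF4G with low expression in these cells, had 19, 48 and 53 reads at 0 h and 9, 2 and 7 at 24 h, or 9.51, 17.8 and 19.6 and 3.61, 0.995 and 2.93 CPM (-2.59 ± 0.50 (SE, adjusted p = 5.32e-05)). Every 24 h library was below every 0 h library, on few reads. Eif6 went from 301, 313 and 305 to 148, 141 and 165 CPM (-1.02 ± 0.12 (SE, adjusted p = 5.61e-10)), and Eif4g1 from 289, 261 and 280.0 to 136, 124 and 153 (-1.005 ± 0.13 (SE, adjusted p = 7.74e-09)), again without overlap. With Eif4g2 (-0.64 ± 0.08 (SE)) all 3 eIF4G genes were lower. Eif5b, Eif4ebp2, Eif2b1, Eif2ak1 (the haem-regulated eIF2 kinase), Eif4a1, Eif4b, Eif4ebp1, Eif4h and Eif5a fell by 0.28 to 0.82.

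Of the 13 tested eIF3 genes 3 fell and 5 rose, beside 17% and 15.9% of all genes, and no test was made of this split. Eif3a, Eif3b and Eif3c, which encode the largest subunits, fell. Eif3a went from 470.1, 475 and 568 to 277, 253 and 227 CPM (-0.999 ± 0.11 (SE)), Eif3b from 244, 219 and 252 to 150.3, 154 and 143 (-0.68 ± 0.12 (SE)) and Eif3c from 451, 438 and 435 to 327, 316 and 257 (-0.56 ± 0.11 (SE)). In each of the 3 the groups were apart. In contrast, Eif3i rose from 273, 292 and 293 to 518, 550.4 and 549 (0.91 ± 0.11 (SE)), Eif3h from 500.1, 576 and 528 to 842, 1044 and 1001 (0.85 ± 0.10 (SE)) and Eif3k from 261, 215 and 262 to 381, 361 and 373 (0.60 ± 0.12 (SE)), and these groups were apart too. Eif3e and Eif3l rose by 0.49 and 0.32, and the other 5 of the 13 tested subunits, among them Eif3g (-0.15 ± 0.13 (SE)), were not called. The remaining members that rose were Eif2a, an alternative carrier of initiator tRNA, Eif4a2 and Eif1 (0.50, 0.43 and 0.34). In total reads of RBBP5–FKBP cells at 24 h the called members were Eif1a and Eif1 alone. In those of dKO cells at 24 h Eif3i and Eif3f rose, and the members that fell were not eIF3 genes.

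Interval length and labelling are given beside these changes, and their part was not tested. Of the members that rose, Eif3i, Eif3e, Eif3l and Eif3h have counted intervals of 93, 159, 161 and 170 bases, but Eif3k, Eif1, Eif2a and Eif4a2 have 576, 999, 1816 and 2424. Eif3b, Eif3c and Eif3a, which fell, have 556, 797 and 965. In the untreated RBBP5–FKBP libraries, which took no part in this comparison, the median T>C share was 4.75% (range 2.69% to 21.7%) for the 8 members that rose and 8.61% (2.79% to 16.0%) for the 16 that fell, and the ranges overlapped almost wholly. The medians over all genes that rose and fell were 7.47% and 11.9%. The Spearman correlation of this share with the change was -0.23 over 45 members and -0.19 over 5882 genes, which is weak in both, and the genes share libraries and base composition.

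**Figure D3:**
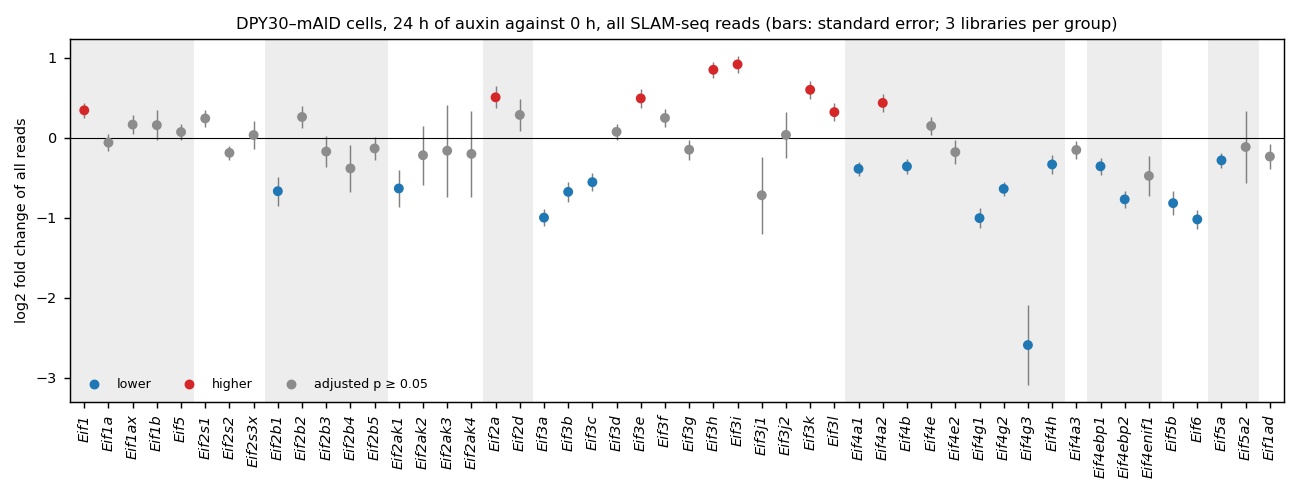
Log2 fold change of all SLAM-seq reads in DPY30–mAID cells after 24 h of auxin against 0 h (vertical axis, bars are standard errors, 3 libraries per group) for each tested member (horizontal axis, grey shading separates roles). Blue points fell and red points rose at adjusted p below 0.05, with Eif4g3 lowest at -2.59 and Eif3i highest at 0.91.

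Labelled RNA of some initiation factors was also lower in RBBP5–FKBP cells. At 8 h of dTAG-13 6 of 43 tested members fell and 0 rose, beside 7.52% and 0.126% of 4761 genes, with medians of -0.68 and -0.49. Eif1a, which with its paralogue Eif1ax acts in start codon selection, went from 113, 100.5 and 139 to 48.0, 47.9 and 72.7 T>C CPM (-1.06 ± 0.24 (SE, adjusted p = 0.00205)). Eif4b, which assists eIF4A, went from 67.7, 87.7 and 84.2 to 36.1, 28.8 and 49.6 (-1.06 ± 0.26 (SE, adjusted p = 0.00641)) and Eif5a from 67.2, 79.9 and 64.6 to 39.5, 32.7 and 40.6 (-0.91 ± 0.26 (SE, adjusted p = 0.0215)). In all 3 genes every 8 h library was below every 0 h library. Eif4a1, Eif1 and Eif4g2 fell by 0.90, 0.85 and 0.72. Without the second 8 h library 2 members were called, and with scaling to T>C reads 0. At 2 h 0 of 43 were called, beside 0.252% of all genes, with 12 lower and 0 higher at an unadjusted p below 0.05, whereas DESeq2 called 5 lower.

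At 24 h of dTAG-13 21 of 43 members had fallen and 0 had risen, beside 25.9% and 0.189% of all genes, and the medians were -1.02 and -0.91. Of the genes of start codon selection 4 of 5 fell. Eif1a went from 113, 100.5 and 139 to 36.2, 19.6 and 29.2 T>C CPM (-2.05 ± 0.25 (SE, adjusted p = 2.16e-09)). Eif1ad went from 21.6, 19.2 and 11.8 to 0.873, 5.14 and 7.66 (-1.94 ± 0.52 (SE, adjusted p = 0.00336)) and Eif4ebp1 from 56.9, 84.5 and 46.9 to 16.2, 16.4 and 19.1 (-1.86 ± 0.30 (SE, adjusted p = 1.88e-06)). The groups were apart for each of the 3, with one Eif1ad library close to none. Eif5b, which joins the subunits, fell by 1.84 and Eif6, which keeps them apart, by 1.61. Eif3f, Eif3l, Eif3b and Eif3a fell by 1.56, 1.54, 1.53 and 0.74, and 0 of 4 tested eIF2B genes passed. Scaling to T>C reads left 1 lower and 1 higher, with a members' median of -0.11 and an all-gene median of -0.01, and 4 of the 21 values (Eif2s2, Eif3a, Eif4a3 and Eif5a) then lay slightly above 0.

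Their total RNA changed little. Of 51 members 4 fell at 8 h and 0 rose, beside 4.96% and 4.2% of 9676 genes, and 2 fell at 24 h and 0 rose, beside 4.34% and 3%. Eif1a had 384, 427 and 494 CPM before treatment, 262, 229 and 363 after 8 h and 277, 294 and 291 after 24 h (-0.61 ± 0.15 (SE, adjusted p = 0.0104) and -0.60 ± 0.15 (SE, adjusted p = 0.0121)). Eif1, which guards against wrong start codons, had 808, 924 and 875, 551, 554 and 609 and 684, 724 and 627 (-0.61 ± 0.11 (SE, adjusted p = 0.000999) and -0.36 ± 0.11 (SE, adjusted p = 0.0459)). For both genes all libraries of 8 and 24 h were below all untreated ones. Eif4a1 went from 745, 1171 and 1146 to 725, 642 and 779 at 8 h (-0.51 ± 0.14 (SE, adjusted p = 0.0265)), where one 0 h library lay within the range of the treated ones, and Eif2s1, the subunit of eIF2 that the kinases phosphorylate, fell by 0.48. The 8 h count was 7 (5 lower, 2 higher) without the first 0 h library, 2 without the second or the third 0 h library or the second 8 h library, and 1 without the first 8 h library. The 24 h count was 0 without the first 24 h library and 1 without the second 0 h library or the second or the third 24 h library, and without TMM it was 1 lower and 2 higher. DESeq2 called 4 at 24 h, the fit without the filter on low counts 4 and that with the replicate block 1. At 2 h 0 of 51 were called, as were 0% of all genes, with 1 lower and 1 higher at an unadjusted p below 0.05 and 0 by DESeq2.

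In dKO cells labelled RNA of the members was not lower by the test until 24 h. At 2, 4 and 8 h 0 of 44 members were called by edgeR's quasi-likelihood test, beside 0%, 0.453% and 1.14% of 5965 genes. At an unadjusted p below 0.05, 3 were lower and 1 higher at 2 h, 11 lower and 0 higher at 4 h, and 7 lower and 1 higher at 8 h, and DESeq2 called 0, 2 and 0. Leaving out the first 0 h library gave 1 call at 4 h and 1 at 8 h. At 24 h 25 members had fallen and 0 had risen, beside 42.2% and 0.151% of all genes, with medians of -0.73 and -0.80. Eif2b3 (-2.35), Eif4a2 (-1.56), Eif4enif1 (-1.45) and Eif4e2 (-1.27) changed most, and the count was 12 without the second 0 h library.

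At 48 h 34 of 44 members had fallen and 0 had risen, beside 72.3% and 0.117% of all genes. The members' median of -1.21 was close to the -1.29 of all genes. Eif4enif1, the carrier of eIF4E to the nucleus, went from 4.30 and 3.33 to 0.144 and 1.01 T>C CPM (-2.68 ± 0.55 (SE, adjusted p = 2.41e-05)). Eif2s3x went from 19.6 and 22.1 to 4.04 and 4.49 (-2.28 ± 0.24 (SE, adjusted p = 3.11e-13)) and Eif4a2 from 56.2 and 73.8 to 13.3 and 14.8 (-2.21 ± 0.18 (SE, adjusted p = 2.31e-18)). Both libraries at 48 h were below both at 0 h for each of them. All 5 genes of start codon selection, all 3 tested of the eIF2 complex, 7 of 8 of eIF4 and 8 of 11 of eIF3 fell. Scaled to T>C reads, 1 member passed as lower and 3 as higher after 24 h, whereas after 48 h 2 passed as lower and 1 as higher. Among these calls Eif4a1 and Eif4g2 at 24 h and Eif2s2 at 48 h went from lower to higher. The medians of the members were then 0.06 at 24 h and 0.10 at 48 h, beside -0.01 and 0.00 for all genes, so the direction of the members as a group turned with this scaling, as did that of 10 of the 25 members called at 24 h and 18 of the 34 called at 48 h.

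Total RNA in dKO cells moved slightly. At 2, 4 and 8 h 0 of 51 members were called, beside 0%, 0% and 0.746% of 11394 genes. At an unadjusted p below 0.05 there were 5 lower and 4 higher, 1 lower and 3 higher, and 8 lower and 4 higher, and DESeq2 called 1, 0 and 1. The count at 2 h was 3 without the second 0 h library, and at 8 h 1 without the first. At 24 h 6 fell (Eif4e2, Eif2s1, Eif4g2, Eif4a2, Eif2s2 and Eif4a1, by 0.17 to 0.36) and 2 rose (Eif3i and Eif3f, by 0.29 and 0.23), beside 6.02% and 5.15%, or 5 and 4 without TMM. This count was 5 without the second 0 h library, 3 without the first 24 h library and 1 without the second.

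By 48 h 14 members had fallen and 2 had risen, beside 7.93% and 6.59% of all genes, with a median of -0.06. Eif2b4, a subunit of eIF2B, went from 28.6 and 37.2 to 18.04 and 23.0 CPM (-0.69 ± 0.17 (SE, adjusted p = 0.0125)). Eif2s1 went from 493 and 539 to 360.1 and 391 (-0.46 ± 0.06 (SE, adjusted p = 0.000212)), whereas Eif3f rose from 417 and 389.9 to 501 and 575 (0.42 ± 0.07 (SE, adjusted p = 0.000926)), as did Eif3h by 0.28. The libraries did not overlap for Eif2b4, Eif2s1 and Eif3f. Without TMM 9 were lower and 5 higher, and without the second 0 h library 8 were called.

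The effect of auxin on labelled RNA was then compared directly between dKO and DPY30–mAID cells in one model. At 0 h the T>C share of the libraries was 4.98% in dKO and 15.8% in DPY30–mAID cells, and depth differed too. An effect of the loss of KDM5A and KDM5B on the response cannot be told apart from these differences between the lines. At 2 h 0 of 45 members differed, as did 0% of 6901 genes, with 1 lower and 0 higher at an unadjusted p below 0.05 and 0 by DESeq2. At 8 h 1 member was less reduced in dKO cells and 0 more reduced, beside 0.275% and 0.0145% of all genes, with a median difference of 0.82, beside 0.49. That member was Eif3f, with a difference of 2.45 ± 0.57 (SE, adjusted p = 0.0345). In dKO cells it had 5.63 and 5.19 T>C CPM at 0 h and 8.37 and 9.22 at 8 h, so its libraries did not fall there. This call rested on single libraries: 16 members differed without the first 8 h library of DPY30–mAID cells, 3 without the third, and 0 without the second, nor without the first or the third 0 h library of that line or any 0 h or 8 h library of dKO cells. DESeq2 called 8 members at 8 h, without Eif3f among its calls.

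At 24 h the sign was the opposite. The labelled RNA of 6 members was more reduced in dKO cells and that of 0 less reduced, beside 3.22% and 0.029% of all genes, with medians of -0.77 and -0.71. Eif4a3, a helicase of the exon junction complex, had 59.6, 54.4 and 58.2 T>C CPM at 0 h and 109, 97.0 and 115 at 24 h in DPY30–mAID cells, and 6.08 and 8.38 and 3.25 and 3.58 in dKO cells (-1.99 ± 0.46 (SE, adjusted p = 0.014)). It was higher at 24 h in each library of the former and lower in each of the latter. Eif3e showed the same pattern, with 15.0, 14.1 and 17.4 and 31.7, 41.8 and 37.7 in DPY30–mAID cells, and 25.8 and 36.0 and 16.3 and 21.5 in dKO cells (-1.98 ± 0.46 (SE, adjusted p = 0.014)). Eif2s1 went from 32.0, 68.9 and 38.5 to 85.8, 90.6 and 75.03 in DPY30–mAID cells, and from 20.9 and 25.9 to 9.62 and 13.4 in dKO cells (-1.88 ± 0.44 (SE, adjusted p = 0.014)). Of the start codon genes, Eif1a went from 158, 159.6 and 196 to 200.01, 208 and 244 in the former and from 40.8 and 46.7 to 21.9 and 21.0 in the latter (-1.38 ± 0.36 (SE, adjusted p = 0.0245)), and Eif1 went from 174, 213 and 195 to 272, 305 and 300.1 in the former and from 44.8 and 57.5 to 30.7 and 31.7 in the latter (-1.32 ± 0.35 (SE, adjusted p = 0.0245)). For these 3 genes too the 24 h libraries lay above those of 0 h in DPY30–mAID cells and below them in dKO cells. The helicase gene Eif4a2 went from 74.1, 92.9 and 80.0 to 62.1, 95.5 and 102 in the former and from 56.2 and 73.8 to 23.2 and 21.0 in the latter (-1.64 ± 0.41 (SE, adjusted p = 0.0181)), so that its libraries overlapped between the times in DPY30–mAID cells and were apart in dKO cells. None was called without the second 0 h library or either 24 h library of dKO cells, and DESeq2 called 10. Scaling to T>C reads gave 4 more reduced and 2 less reduced, with an all-gene median of -0.04 in place of -0.71. The members' median under this scaling is given in the closing section.

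Across the lines, 42 members were tested in all 3. Of these, 14 were lower in DPY30–mAID cells at 8 h, in RBBP5–FKBP cells at 24 h and in dKO cells at 48 h: Eif1, Eif1a, Eif1ad, Eif2s2, Eif3a, Eif3l, Eif4a1, Eif4b, Eif4e2, Eif4ebp1, Eif4g2, Eif5, Eif5a and Eif6. That is 33.3% of the 42, beside 12.2% of the 4324 genes tested in all 3 lines. A further 5 members (11.9%) were lower in none of the 3, beside 17.9% of all genes. These times were chosen with the calls known, as the time with most calls in each line. At 24 h, the latest time that all 3 lines share, the count is 0, because 0 members were called in DPY30–mAID cells. With scaling to T>C reads 0 members were lower in all 3 at the times above. The tested members had more T>C reads at 0 h than all genes in each line, so more could pass at an equal change. Their medians were 81.5 beside 27.3 in DPY30–mAID cells, 47 beside 23.7 in RBBP5–FKBP cells and 68 beside 28 in dKO cells. Differences between the RBBP5–FKBP and DPY30–mAID courses were not tested.

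In control cells, 4 days of RA without LIF lowered most initiation factors. Of 52 tested members 34 had fallen and 2 had risen at day 4 against 0 h in DMSO, beside 25.6% and 28.7% of 11415 genes. The members' median was -0.52, that of all genes 0.06, and 44 of the 52 had negative values. The members had a median of 505 reads at 0 h, beside 53.5 for all genes. Without TMM 27 fell and 2 rose, with medians of -0.37 for the members and 0.22 for all genes. Over these days the summed stem cell markers went from 7195 and 7484 to 3372 and 3409 CPM. The part of this change of cell state in the members' values was not tested.

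The largest change was a rise. Eif4g3 had 7.75 and 6.36 CPM before RA, 21.7 and 17.7 after 8 h, 30.7 and 39.1 at day 1, 114 and 54.8 at day 2 and 192 and 142 at day 4 (4.56 ± 0.52 (SE, adjusted p = 3.72e-08)). Every later pair lay above the 0 h pair. The only other member that rose at day 4 was Eif1b, the paralogue of Eif1, at 104 and 102 and 165 and 197 (0.81 ± 0.12 (SE, adjusted p = 3.04e-06)). The other eIF4G genes fell, Eif4g1 by 0.38 and Eif4g2 by 0.24.

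Of the members that fell at day 4, Eif3b, a core subunit of eIF3, went from 294 and 299 to 126 and 133 CPM (-1.20 ± 0.13 (SE, adjusted p = 1.63e-08)), and Eif1a from 265 and 292 to 121 and 123 (-1.19 ± 0.13 (SE, adjusted p = 1.5e-08)). Both day 4 libraries lay far below both 0 h libraries. Eif2d, an alternative carrier of initiator tRNA, Eif5a2, a rare paralogue of Eif5a, and Eif4ebp1 fell by 1.07, 0.98 and 0.96. The counts by role stand beside 25.6% of all genes that fell, and no role was tested as a set. All 3 tested genes of eIF2 fell (Eif2s1 by 0.76, Eif2s2 by 0.63 and Eif2s3x by 0.62), as did 4 of 5 of eIF2B, 8 of 13 of eIF3, 4 of 5 of start codon selection and 6 of 11 of eIF4. Of the 4 eIF2 kinases only Eif2ak1 fell.

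The way there was not the same for all members. At 8 h 6 had fallen and 10 had risen, beside 9.08% and 9.21% of all genes, and the median was 0.11. Among the called members Eif1b rose most (0.94) and Eif1a fell most (-0.68), whereas Eif4g3, with a larger value on few reads, was not called (1.47 ± 0.72 (SE)). Without TMM 8 fell and 6 rose. This count was 9 without the first or the second 0 h library, 10 without the first 8 h library and 7 without the second.

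At day 1 19 had fallen and 13 had risen, beside 25.5% and 26.2% of all genes, with medians of -0.17 and 0.04. Eif3a (-1.85), Eif4b (-1.70), Eif1a (-1.56), Eif4ebp2 (-1.54), Eif5b (-1.48) and Eif3b (-1.44) fell most. Eif3a had 423 and 392 CPM at 0 h, 125 and 101 at day 1 and 295 and 260.4 at day 4, and thus was lowest at day 1. Among the genes that rose, Eif1 went from 1079 and 1165 to 2579 and 2899 and was at 757 and 780.4 by day 4, below the start. Eif4e3, a relative of eIF4E with few reads, went from 6.30 and 6.36 to 25.0 and 25.3 and 5.24 and 3.18. Of 13 eIF3 genes 7 fell and 3 rose (Eif3e, Eif3h and Eif3i). At day 2 21 had fallen and 7 had risen, beside 22.9% and 25.1%, and 18 and 10 without TMM.

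**Figure D4:**
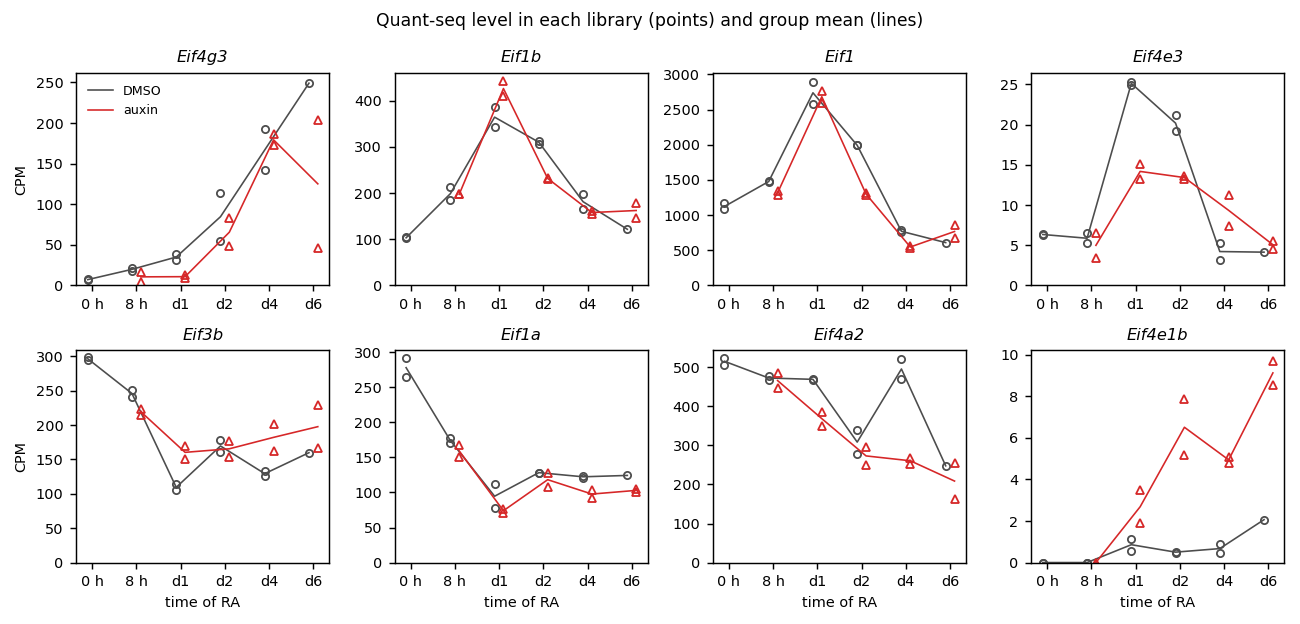
Quant-seq CPM (vertical axes, each from 0) of 8 members in each library (points) and group means (lines) from 0 h to day 6 of RA, with DMSO (circles) or auxin (triangles). Eif4g3 climbs from under 10 to 142 and 192 at day 4 in DMSO, Eif1b and Eif1 peak at day 1, Eif1a and Eif3b drop within a day, and Eif4a2 is lower with auxin at day 4.

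To ask how loss of DPY30 affects RNA levels during differentiation, the auxin libraries of each RA time were compared with the DMSO libraries of that time. The DMSO libraries also serve the RA course. At 8 h 0 of 52 members differed from DMSO by edgeR's quasi-likelihood test, beside 0.762% of all genes, with 7 lower and 1 higher at an unadjusted p below 0.05, and DESeq2 called 0. At day 1 1 was lower (Eif1ax, -0.34) and 2 were higher (Eif3a and Eif3b, 0.56 and 0.55), beside 2.97% and 4.27%, or 1 and 1 without TMM. The count at day 1 was 1 without the first DMSO library and 0 without any one of the other 3 libraries. At day 2 7 were lower, led by Eif1 (-0.62), Eif6 (-0.58) and Eif4e2 (-0.57), and 2 were higher (Eif5, 0.30, and Eif4e1b, which passed the filter of a mean of 10 reads through auxin groups alone, so that its call rests on a filter set by the change itself), beside 7.39% and 5.96%, or 7 and 5 without TMM. It was 5 without the second auxin library and 4 without the second DMSO library of day 2.

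At day 4 11 members were lower with auxin and 3 higher, beside 10.4% and 7.78% of all genes, with medians of -0.13 and 0.00. Eif4a2 had 522 and 469.6 CPM with DMSO and 254 and 268 with auxin (-0.93 ± 0.13 (SE, adjusted p = 1.39e-05)), and the pairs were far apart. Eif4ebp1 (-0.62), Eif5a (-0.59), Eif3k (-0.53) and Eif4e2 (-0.51) followed, and Eif1, Eif1ax, Eif2s2, Eif4b, Eif3h and Eif4a1 were lower by 0.30 to 0.49. Eif4e3 was higher, at 5.24 and 3.18 and 7.44 and 11.2 (1.14 ± 0.39 (SE, adjusted p = 0.0401)), as was Eif3b (0.49 ± 0.13 (SE)). The gene of the oocyte-type cap-binding protein, Eif4e1b, had 1 and 2 reads with DMSO and 9 and 10 with auxin at day 4 (2.77 ± 0.72 (SE, adjusted p = 0.00839)) and 1 and 1 and 15 and 9 at day 2, so these values rest on few reads, and as at day 2 the gene was tested only because of its level with auxin. Without it 2 members were higher at day 4 and 1 at day 2. Without TMM 7 were lower and 5 higher with a median of 0.05, and 8 were called without the first DMSO library of day 4. DESeq2 called 11 lower and 1 higher, and neither Eif4e1b nor Eif4e3 passed it. Primitive endoderm markers summed to 521 and 529 CPM with DMSO and 299 and 301 with auxin at day 4, and stem cell markers to 3372 and 3409 and to 1956 and 2004, and the part of such a shift in the members' values was not tested.

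Other genes of translation from a list of 42 (elongation, termination and poly(A)-binding genes such as Eef2 and Pabpc1, mTOR pathway genes such as Mtor, initiation helpers such as Ddx3x and Denr, and genes of the integrated stress response such as Atf4 and Ddit3) are given for context. In DPY30–mAID cells at 8 h 14 of the 31 tested had lower T>C reads and 0 higher, beside 16.1% and 0.158% of all genes, with a median of -0.97. In RBBP5–FKBP cells at 24 h the counts were 11 and 0 of 28, beside 25.9% and 0.189%, and in dKO cells at 48 h 30 and 0 of 35, beside 72.3% and 0.117%. In all reads of DPY30–mAID cells at 24 h 7 fell and 4 rose of 40, beside 17% and 15.9%, and at RA day 4 23 fell and 5 rose of 39, beside 25.6% and 28.7%, with a median of -0.49. Larp1, a regulator of the mRNAs of the translation apparatus, fell by 1.28 in all reads of DPY30–mAID cells at 24 h and by 1.16 at RA day 4, and Pdcd4, an inhibitor of eIF4A, rose by 1.99 at RA day 4.

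Of the eIF2γ pair, the Y-linked Eif2s3y was read in RBBP5–FKBP cells alone among the lines in more than a stray read. It had 114 to 218 reads in each of their 12 libraries, 1 read over 12 DPY30–mAID libraries, 1 read over 12 dKO libraries and 0 in 21 Quant-seq libraries, which allows up to 0.0740 CPM there by a limit of 3 counts. Of other Y-linked genes there were 2407 reads of Ddx3y in RBBP5–FKBP cells and 0, 32 and 3 in the others, and 543 reads of Uty and 11, 58 and 40. Kdm5d did not follow this pattern, with 0 reads in RBBP5–FKBP and DPY30–mAID cells, 29 in dKO cells and 19 in Quant-seq. Eif2s3x was read in all lines, with 2648, 2626, 22875 and 5144 reads in RBBP5–FKBP, DPY30–mAID, dKO and Quant-seq libraries, of which most were multimapped. Comparisons of the RBBP5–FKBP line with the others thus involve cells that differ in these genes, and the origin of the difference was not tested.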

How the data were processed

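SLAM-seq and Quant-seq were measured in 58 libraries, 36 and 22. The authors deposited count tables of reads per 3′ UTR interval, made with SlamDunk 0.3.4 per the file headers, which hold all reads, reads with a T>C conversion and multimapped reads. The submitters' notes also name HISAT2 2.2.1 and featureCounts, without saying for which files. The paper's methods name both for Quant-seq, although those counts too carry a SlamDunk header. Multimapped reads are included in the counts, and the T>C count includes reads with a single conversion, so that sequencing errors contribute a background. Intervals were summed per gene.

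Counts were fitted across all genes with edgeR 4.0.16 (R 4.3.3, quasi-likelihood test, Benjamini-Hochberg adjustment, threshold 0.05), 1 fit per line, 1 of DPY30–mAID and dKO cells together for the difference between them, and 1 of all Quant-seq groups. Genes needed a mean of at least 10 reads in a group. Library sizes were total reads with TMM factors, for T>C reads too. DESeq2 1.42.0 and the other alternatives are described in the closing section. The fits were tested on simulated counts. Share tables used Python 3.11.15. Values in every library are given for the 3 members with the largest called change at 8 h, at the last time of each line and at RA day 4, for the 3 highest and 3 lowest labelled shares, and for every member that differed between lines. Other members were picked for naming with their values in view. The members and lists were chosen with earlier results of these data known.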

Additional observations from a re-analysis of the deposited data

Results flagged for a closer look

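Between dKO and DPY30–mAID cells the effect of auxin on labelled RNA differed for 1 member at 8 h and 6 at 24 h, by the test of the difference itself. At 8 h Eif3f was less reduced in dKO cells, with a difference of 2.45 on the log2 scale (adjusted p = 0.0345 by edgeR's quasi-likelihood test). All 3 libraries of DPY30–mAID cells at 8 h were below those of 0 h, and both dKO libraries were above. At 24 h the difference was -1.99 for Eif4a3, -1.98 for Eif3e, -1.88 for Eif2s1, -1.64 for Eif4a2, -1.38 for Eif1a and -1.32 for Eif1, with adjusted p of 0.014 to 0.0245. These calls rested on single libraries. At 8 h 0 members differed without any one of 7 of the 10 libraries, 16 without the first and 3 without the third 8 h library of DPY30–mAID cells, and DESeq2 did not call Eif3f. At 24 h 0 differed without the second 0 h library or either 24 h library of dKO cells. With scaling to T>C reads some members were called less reduced at 24 h, and the all-gene median difference was -0.04 in place of -0.71. The lines also differed in labelled share and depth.

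At RA day 6, which entered no test, 1 member stood in every library above 2 times the highest 0 h library and above 2 times the level of 3 reads there. This was Eif4g3. Its lowest day 6 library had 45.9 CPM, whereas the 0 h libraries had 7.75 and 6.36. The auxin libraries of day 6 were far apart for this gene, at 204 and 45.9, with 249 in DMSO.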

How the results depend on the processing

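Of the 312 called values of members, 0 changed sign with DESeq2, without TMM, without the filter on low counts, with the replicate block, with multimapped reads subtracted (run for 199 of them) or with a library left out. Scaling to T>C reads turned 32 of the 113 called T>C values it could be run for, 4 in RBBP5–FKBP cells at 24 h (Eif3a to 0.16, the highest) and 10 and 18 in dKO cells at 24 and 48 h. Of these, 3 were then called higher, Eif4a1 (0.35, adjusted p = 0.0397) and Eif4g2 (0.36, adjusted p = 0.0328) at 24 h and Eif2s2 (0.50, adjusted p = 0.00113) at 48 h. The T>C medians in dKO cells turned with it, and the median for auxin at day 4 without TMM. Counts of called members are given as fell and rose together, with the value in the report in brackets. With DESeq2 the T>C counts were 2 (0) in DPY30–mAID cells at 24 h, 5 (0) in RBBP5–FKBP cells at 2 h and 2 (0) in dKO cells at 4 h, the total counts 1 (0) in DPY30–mAID cells at 2 h, 4 (2) in RBBP5–FKBP cells at 24 h, and 1 (0) in dKO cells at 2 h and at 8 h, and the differences between lines 8 (1) at 8 h and 10 (6) at 24 h. The median at RA day 1 became -0.11.

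Scaling to T>C reads gave 6 (20) and 13 (0) in DPY30–mAID cells after 8 and 24 h, 0 (6) and 2 (21) in RBBP5–FKBP cells at 8 and 24 h, 4 (25) and 3 (34) in dKO cells at 24 h (1 lower, 3 higher) and 48 h (2 lower, 1 higher), and 2 (1) for the difference at 8 h. The medians became -0.35, -0.20, -0.11, 0.063 and 0.10 for the called times in that order of lines, and -0.092 for the difference at 24 h. Without TMM the T>C count in DPY30–mAID cells at 8 h was 13 (20), and medians became -0.67 in dKO cells at 24 h (T>C), -0.12 and -0.37 at RA day 1 and day 4, and 0.051 for auxin at day 4.

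Requiring also a log2 fold change of at least 1 left 0 (7) and 3 (24) in total reads of DPY30–mAID cells at 8 and 24 h, 2 (6) in T>C reads of RBBP5–FKBP cells at 8 h, 0 (4) and 0 (2) in their total reads, 10 (25) in T>C reads of dKO cells at 24 h, 0 (8) and 0 (16) in their total reads at 24 and 48 h, 0 (16), 12 (32), 8 (28) and 4 (36) at RA 8 h, day 1, day 2 and day 4, and 0 (3), 1 (9) and 2 (14) for auxin at day 1, day 2 and day 4. Leaving the members over 20% multimapped out of the count gave 11 (20) in T>C and 2 (7) and 15 (24) in total reads of DPY30–mAID cells, 1 (6) and 11 (21) in T>C and 1 (4) and 1 (2) in total reads of RBBP5–FKBP cells, 12 (25) and 19 (34) in T>C and 3 (8) and 8 (16) in total reads of dKO cells, 2 (6) for the difference at 24 h, 6 (16), 18 (28) and 23 (36) at RA 8 h, day 2 and day 4, and 8 (14) for auxin at day 4. Fewer members counted in part sets these values. Subtracting multimapped reads gave 4 (8) in total reads of dKO cells at 24 h. Without the filter on low counts the total counts were 4 (2) in RBBP5–FKBP cells at 24 h and 3 (0) and 1 (0) in dKO cells at 2 and 8 h, and 1 (0) for auxin at 8 h, with medians of -0.58 (RBBP5–FKBP T>C, 8 h), -0.55 (RA day 4) and -0.16 (auxin day 4), and -0.11 at RA day 1. Other causes were not tested.

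Leaving out each library in turn gave ranges of 11 to 27 in T>C reads of DPY30–mAID cells at 8 h (median -1.36 to -0.72), with a median of -0.11 to 0.076 at 24 h, and 6 to 7 and 20 to 24 in total reads at 8 and 24 h (median -0.25 to -0.11 at 24 h). In RBBP5–FKBP cells T>C counts were 2 to 5 at 8 h (-0.70 to -0.53) and 15 to 20 at 24 h (-1.07 to -0.93), and total counts 1 to 7 and 0 to 3. In dKO cells T>C counts were 0 to 1 at 4 h and at 8 h, 12 to 22 at 24 h (-0.86 to -0.53) and 28 to 35 at 48 h (-1.41 to -1.07), and total counts 0 to 3, 0 to 1, 1 to 7 and 8 to 19 at 2, 8, 24 and 48 h. The differences between lines gave 0 to 16 at 8 h (0.56 to 1.11) and 0 to 7 at 24 h (-0.88 to -0.65). The RA counts were 7 to 10, 26 to 30, 21 to 24 and 30 to 33 (medians -0.13 to -0.091 at day 1 and -0.51 to -0.48 at day 4), and the auxin counts 0 to 1, 4 to 7 and 8 to 11 (-0.15 to -0.10 at day 4). Of the single members, 51 of 238 such values no longer passed. A lone library left in a dKO or Quant-seq group was assumed to vary like the other groups.

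Replicate numbers were not used to pair the libraries. Same-numbered libraries deviated together with mean correlations of -0.01 to 0.04 per fit. The lowest was -0.15 in Quant-seq and the highest 0.31 in total reads of dKO cells. With the replicate block the counts were 1 (2) in total reads of RBBP5–FKBP cells at 24 h, 1 (0) in T>C reads of dKO cells at 4 h, 1 (0) in their total reads at 2 h and 5 (3) for auxin at day 1, and the other 29 stayed within 1.5 times. Counting conversions per T position moved the log2 labelling relative to the library from -1.39 to -1.59 for Eif3e, from -1.18 to -0.94 for Eif3h and from 1.16 to 0.95 for Eif1a. The tested members had a median of 47.0 to 81.5 T>C reads at 0 h, and the part of depth in the T>C calls was not tested.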
